A study of Mus musculus with 16 samples.

Results

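Deletion of Lrrc10 was compared with wild type in uninjured neonatal hearts, across all genes that could be tested. The members were the genes whose counts summed to 10 or more in KO SH and also in WT SH. These were 20543 of the 51912 genes in the table and of the 32919 genes with a count in any library of the series. They were measured in 8 of the 16 libraries, 4 per group. WT SH mice were wild type C57BL/6J mice and KO SH mice were Lrrc10-/- mice, a whole-body knockout line made in the C57BL/6 background. Both groups had sham surgery on postnatal day 1. No artery was tied and the heart was not brought out, while the chest wound and the cooling of the pups were common to both groups. Full ventricles were taken on postnatal day 8, and total RNA depleted of ribosomal RNA was sequenced. The other 8 libraries came from mice of the same genotypes given a myocardial infarction (WT MI and KO MI) and are used here only to set the spread between libraries and for a comparison with the injured heart.

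LRRC10 is a leucine-rich repeat protein found in cardiomyocytes, where it sits at the Z-disc and the neighbouring membrane junctions, binds actin and alpha-actinin, and modulates the L-type calcium channel. The neonatal mouse ventricle is in transition at this age: cardiomyocytes leave the cell cycle, exchange fetal for adult sarcomere isoforms, and move from glycolysis to oxidation of fatty acids in a growing mitochondrial network. The comparison therefore asks what the hearts of Lrrc10-/- mice look like at baseline, before any injury. Because bulk ventricle was sequenced, fewer cells of a type and less RNA per cell cannot be told apart, and changes in cardiomyocytes cannot be separated from those in fibroblasts, endothelium or blood cells except through the genes that mark them.

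Total counts were 57470159, 39339197, 37842114 and 42260967 in WT SH 1 to 4 and 46374010, 37962875, 50123038 and 39074831 in KO SH 1 to 4. Levels are given as counts per 1000000 counts (CPM) after scaling of the libraries, always in the order of libraries 1 to 4 of a group, and fold changes as log2 of KO SH over WT SH ± SE. The labelled tissue matched its markers: the cardiomyocyte gene Tnnt2 (cardiac troponin T) ran from 1539 to 2599 CPM over the 8 libraries and Ryr2 (the sarcoplasmic calcium release channel) from 3932 to 4954 CPM. The fibroblast gene Pdgfra (53.4 to 66.7 CPM) and the endothelial gene Pecam1 (136 to 157 CPM) were present in every library.

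The libraries were not all alike in sex-linked transcripts. Xist, the RNA that silences the inactive X chromosome, was 9.76, 6.17, 6.72 and 6.38 CPM in WT SH and 954, 969, 16.6 and 13.2 CPM in KO SH. Ddx3y, a Y-linked helicase gene, was 52.6, 49.5, 48.4 and 47.9 CPM in WT SH 1 to 4, 0 CPM in KO SH 1 and 2, and 42.1 and 42.8 CPM in KO SH 3 and 4. The groups were labelled as balanced for sex, whereas these transcripts put KO SH 1 and KO SH 2 apart from the other 6 libraries. Most counts are therefore given with and without KO SH 1 and KO SH 2. Without them 2 KO SH libraries remain, and of the 60 named genes that then lost their call 56 kept a log2 fold change of at least 0.8 times that with all libraries. The largest axis of variation among the 8 libraries (40.5% of the variance in a principal component analysis) separated the genotypes, with WT SH 1 to 4 at -27.2, -19.0, -19.1 and -7.99 and KO SH 1 to 4 at 21.7, 19.6, 15.2 and 16.9. On the next axis (13.9% of the variance) WT SH 1 and WT SH 4 lay at opposite ends, at 19.98 and -23.05. Counts without WT SH 1, whose removal lowered the number of calls most among single libraries, are given as well.

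Lrrc10 itself gave 1850, 1090, 1075 and 1138 counts in WT SH 1 to 4 (30.7 ± 3.48 CPM, mean ± SD, n = 4) and 0 counts in each of the 4 KO SH libraries. Set against a floor of 3 counts per library, KO SH was at least 424-fold lower than WT SH. The gene did not reach the minimum count in KO SH, so it was not among the genes tested.

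Of the 20543 genes, 1004 (4.89%) differed by at least 0.5 in log2 fold change at an adjusted p under 0.1 (edgeR quasi-likelihood test, Benjamini-Hochberg adjustment). These are called DEGs (differentially expressed genes) below. Of them 497 (2.42%) were higher and 507 (2.47%) lower in KO SH. Without a minimum fold change 2465 genes (12%) passed the test, 1025 higher (4.99%) and 1440 lower (7.01%), and it is this test that "rose" and "fell" refer to for members of gene lists. The median log2 fold change of all genes was 0.01. The 4 KO SH values lay wholly above or below the 4 WT SH values for 824 of the DEGs and for 18.2% of all genes tested. Without KO SH 1 and KO SH 2 there were 339 DEGs, 135 higher and 204 lower, of which 310 were among the 1004, and 506 genes passed the test. With all libraries kept and a term for Xist over 100 CPM in the fit there were 1038 DEGs, of which 840 were among the 1004. In that fit 2432 genes passed the test. Without WT SH 1 there were 660 DEGs, and 1395 genes passed the test. Every p-value measures the spread between these libraries; the labels do not say whether each came from 1 animal or a pool.

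The DEGs with the largest falls among well expressed autosomal protein coding genes included an inducible nuclear receptor pair, signalling genes and genes with many pseudogenes. A lack of overlap between the groups was part of how the largest falls and rises were chosen. Nr4a3, an orphan nuclear receptor induced within minutes by calcium, cAMP and stress signals, was 23.7, 27.1, 11.8 and 19.2 CPM in WT SH and 1.78, 3.13, 2.79 and 2.99 CPM in KO SH (-2.94 ± 0.26, adjusted p = 2.8e-06). Its paralog Nr4a1 was 33.5, 41.1, 22.4 and 24.3 CPM in WT SH and 4.19, 6.02, 5.71 and 7.36 CPM in KO SH (-2.39 ± 0.21, adjusted p = 2.8e-06). Both were DEGs also without KO SH 1 and KO SH 2 (-2.83, adjusted p = 0.00057 and -2.22, adjusted p = 0.00057). Irs2, the adaptor that couples the insulin and IGF1 receptors to PI3K, was 77.4, 68.2, 52.8 and 57.4 CPM in WT SH and 13.1, 17.4, 17.7 and 24.5 CPM in KO SH (-1.82 ± 0.20, adjusted p = 3.1e-05). Rxfp1, the relaxin receptor, was 10.9, 13.2, 10.4 and 7.34 CPM in WT SH and 2.46, 2.78, 1.81 and 1.78 CPM in KO SH (-2.25 ± 0.33, adjusted p = 0.00056).

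S100a10, the annexin A2 partner that brings ion channels to the plasma membrane, had the smallest p of the named genes. It was 58.9, 45.9, 48.8 and 50.5 CPM in WT SH and 11.6, 14, 13.1 and 12.4 CPM in KO SH (-2.0 ± 0.09, adjusted p = 4.8e-10), and the libraries within each group were close together. Lynx1, a GPI-anchored modulator of nicotinic acetylcholine receptors, was 97.6, 52.9, 17.5 and 49.5 CPM in WT SH and 7.22, 7.32, 9.71 and 10.4 CPM in KO SH (-2.66 ± 0.38, adjusted p = 0.00047). The WT SH levels of Lynx1 were widely spread. Cyfip2, a subunit of the WAVE complex that drives actin branching, was 74, 77.2, 80.6 and 14.1 CPM in WT SH and 12.3, 11.4, 11.1 and 13.7 CPM in KO SH (-2.34 ± 0.53, adjusted p = 0.013). For Cyfip2, WT SH 4 lay next to the KO SH libraries, and without KO SH 1 and KO SH 2 the adjusted p was 0.14.

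Among the 12 largest falls, 5 need care because RSEM, the tool behind the counts, divides reads among near-identical copies. They were Rpl29 (-2.29), Atp5f1e (-2.16), Tdg (-1.89), the beta-globin gene Hbb-bt (-1.86) and the histone gene H2ac18 (-1.83), each given as a log2 fold change. H2ac18 was 161, 191, 171 and 252 CPM in WT SH and 55.1, 60.4, 51.4 and 50.5 CPM in KO SH, but reads from its sister copy can be assigned to either gene.

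The largest rises were taken within the same limits on chromosome, gene type and level. Scd4, a stearoyl-CoA desaturase that makes monounsaturated fatty acids, was 23.3, 16.6, 15.5 and 36.2 CPM in WT SH and 92.6, 82.1, 82.9 and 67.5 CPM in KO SH (1.82 ± 0.35, adjusted p = 0.0044). Acss3, a mitochondrial short-chain acyl-CoA synthetase, was 3.5, 9.88, 11.2 and 9.45 CPM in WT SH and 25.7, 24.1, 24.3 and 23.7 CPM in KO SH (1.54 ± 0.33, adjusted p = 0.0099). Among the WT SH libraries, WT SH 4 was the highest for Scd4 and WT SH 1 the lowest for Acss3. Abca4, a lipid flippase best known from photoreceptors, was 4.19, 4.22, 6.12 and 4.06 CPM in WT SH and 14.3, 13.4, 11.5 and 15.3 CPM in KO SH (1.56 ± 0.20, adjusted p = 0.00017). Ddc, which makes dopamine and serotonin from their amino acid precursors, was 5.88, 4.35, 7.95 and 7.47 CPM in WT SH and 12.5, 14.8, 11.2 and 19.9 CPM in KO SH (1.19 ± 0.20, adjusted p = 0.002). Pygl, the liver isoform of glycogen phosphorylase, had a log2 fold change of 1.07 ± 0.29, adjusted p = 0.035, and did not pass without KO SH 1 and KO SH 2 (adjusted p = 0.21). C3, the central complement component, was 9.0, 5.53, 3.72 and 0.942 CPM in WT SH and 20.1, 24.4, 14.9 and 16.1 CPM in KO SH (1.95 ± 0.68, adjusted p = 0.094). WT SH 4 was the lowest library by far. C3 was close to the threshold, did not pass without KO SH 1 and KO SH 2 (adjusted p = 0.35) and lost its call when WT SH 2, 3 or 4, or KO SH 1, 2, 3 or 4 was left out (adjusted p up to 0.18).

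**Figure D1:**
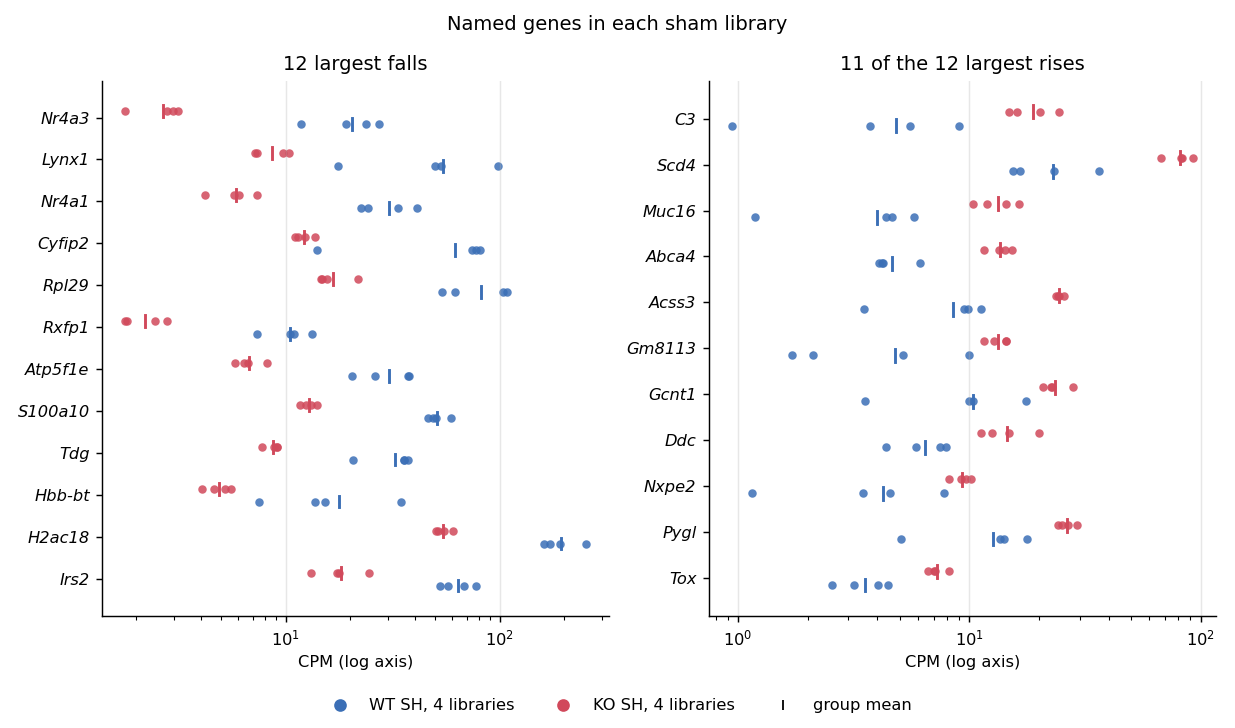
Level of the 12 largest falls (left) and 11 of the 12 largest rises (right) in each sham library, in CPM on a log axis. Points are libraries, 4 per group, and ticks are group means. By the rule that chose them, KO SH and WT SH points do not overlap for any of the 23 genes, while single WT SH libraries (Cyfip2 in WT SH 4, C3 in WT SH 4) sit away from their group.

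Immediate early genes are switched on within minutes of a stimulus without new protein synthesis. Of 21 tested, 7 fell, none rose, and the median log2 fold change was -0.52, beside 7.01% of all genes falling and a median of 0.01. Besides Nr4a1 and Nr4a3, the third family member Nr4a2 was 5.25, 4.65, 3.06 and 4.57 CPM in WT SH and 2.1, 2.46, 2.29 and 2.41 CPM in KO SH (-0.93 ± 0.14, adjusted p = 0.00081). Klf4, a zinc finger factor, was 34.3, 30.7, 28.7 and 29.9 CPM in WT SH and 12.6, 15.2, 13.6 and 13.4 CPM in KO SH (-1.18 ± 0.12, adjusted p = 1.1e-05). The lowest WT SH library of Klf4 lay far above the highest KO SH library. Fos, a subunit of AP-1, was 12.4, 13.4, 4.72 and 5.24 CPM in WT SH and 1.71, 2.89, 1.9 and 4.27 CPM in KO SH (-1.75 ± 0.34, adjusted p = 0.005). Its lowest WT SH library was near the highest KO SH library. Dusp1, the phosphatase that switches off MAP kinases, was 28.1, 25.1, 24.4 and 22.1 CPM in WT SH and 16, 17.6, 15.8 and 19.2 CPM in KO SH (-0.54 ± 0.09, adjusted p = 0.0021). Egr3 had a log2 fold change of -1.34 ± 0.36, adjusted p = 0.031 at under 1 CPM in every library and lost its call when WT SH 2 was left out (adjusted p up to 0.101). The list had 5 falling genes (Fos and Egr3 did not pass) and a median of -0.39 without KO SH 1 and KO SH 2. Without WT SH 1, 7 fell and the median was -0.36. In KO SH 4 the median of the list was -0.02 relative to the WT SH mean, against -0.56, -0.37 and -0.45 in KO SH 1 to 3 and 0.19, 0.12, -0.23 and -0.16 in WT SH 1 to 4. KO SH 4 therefore lay above WT SH 3 and WT SH 4, and the summed level overlapped too (287 to 390.0 CPM in WT SH and 224 to 370.2 CPM in KO SH).

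Sik1, a kinase gene induced by cAMP, was 50.4, 45.4, 41.4 and 44.2 CPM in WT SH and 15.4, 19.8, 19.3 and 19.8 CPM in KO SH (-1.29 ± 0.09, adjusted p = 2.7e-07). It was not on the list and was picked out after its values were seen. Several of these genes are classic targets of CREB, the factor that binds the cAMP response element (CRE) TGACGTCA or its short core TGACG. The 250 bases before the RefSeq start site were searched for TGACG and its reverse complement CGTCA, that is on both strands, counting overlapping matches in a full element. At least 1 match was present in 17.77% of 32851 promoters of the same length, at least 3 in 0.688% and at least 4 in 0.137%. The windows of Nr4a1, Nr4a2 and Nr4a3 each held 4 matches, that of Dusp1 held 3 with 1 full element, that of Fos held 2 and that of Klf4 held 1. All 6 listed genes that fell and had a promoter in the table held a match, and so did 7 of the 11 listed genes with a promoter that did not fall. A match is a description of the letters and not a binding site. The stretches of the Nr4a1, Nr4a3 and Dusp1 promoters that lie before any annotated exon are shown as examples from the genes with 3 or 4 matches. They are RefSeq promoter sequence placed on GRCm39 by exact match, at chr15:101164477-101164656 on the plus strand, chr4:48045055-48045152 on the plus strand and chr17:26727507-26727696 on the minus strand, each written 5′ to 3′ with the TGACG and CGTCA matches in capitals.
Nr4a1: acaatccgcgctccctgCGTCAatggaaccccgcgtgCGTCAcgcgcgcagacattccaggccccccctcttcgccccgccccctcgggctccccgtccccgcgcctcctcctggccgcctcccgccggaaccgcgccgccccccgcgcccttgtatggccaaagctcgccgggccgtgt
Nr4a3: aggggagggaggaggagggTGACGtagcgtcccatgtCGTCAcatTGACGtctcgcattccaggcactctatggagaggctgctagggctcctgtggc
Dusp1: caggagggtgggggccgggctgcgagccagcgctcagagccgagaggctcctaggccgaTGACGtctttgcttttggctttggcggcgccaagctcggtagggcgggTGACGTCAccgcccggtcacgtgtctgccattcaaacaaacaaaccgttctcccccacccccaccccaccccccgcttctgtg
The stretch of Nr4a1 shows 2 of its 4 matches, that of Nr4a3 shows 3 of 4 and that of Dusp1 shows all 3, of which the 2 that overlap form the full element TGACGTCA, a sequence present in 1.546% of the promoters.

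Of 19 clock genes tested 3 fell and 1 rose, with a median of -0.03. Bhlhe40, a repressor in the negative limb of the circadian clock, was 44.1, 44, 43.1 and 43.9 CPM in WT SH and 25.9, 30.9, 31.2 and 25.3 CPM in KO SH (-0.63 ± 0.11, adjusted p = 0.002). Per1, which is also a CREB target, fell by 0.68 on the log2 scale and Nfil3 fell by 0.52. Hlf, a PAR bZIP factor of the clock output, rose (0.54 ± 0.13, adjusted p = 0.018). The 3 falls were kept without KO SH 1 and KO SH 2, Hlf was at 0.52, adjusted p = 0.14 there, and the other core clock genes did not pass the test. The hour of collection was not given in the sources used here.

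Among ion channels, Cacna1g, the pore of the T-type calcium channel Cav3.1, was 38.5, 37.9, 36 and 37.8 CPM in WT SH and 71.9, 71.7, 73.7 and 76.4 CPM in KO SH (0.97 ± 0.09, adjusted p = 2.8e-06). The libraries of each group differed by only a few CPM, and the difference was as large without KO SH 1 and KO SH 2 (0.99, adjusted p = 0.00033). Of the 17 calcium channel genes tested 4 rose and none fell, beside 4.99% of all genes rising and 7.01% falling. They were Cacna1g, the second T-type pore gene Cacna1h (0.58 ± 0.19, adjusted p = 0.071), Cacna1d (0.37 ± 0.13, adjusted p = 0.087), which encodes the sinoatrial L-type pore Cav1.3, and Cacnb2 (0.29 ± 0.06, adjusted p = 0.0098), the beta subunit that brings L-type pores to the membrane. The median of the list was -0.12, but 0.01 without WT SH 1 and 0.04 without KO SH 1 and KO SH 2. Only Cacna1g kept its call without KO SH 1 and KO SH 2, where Cacna1h was at 0.55, adjusted p = 0.28, Cacna1d at 0.46, adjusted p = 0.17 and Cacnb2 at 0.25, adjusted p = 0.14. Cacna1h lost its call when WT SH 1, 2 or 3, or KO SH 1, 2, 3 or 4 was left out (adjusted p up to 0.16). Cacna1d lost its call when WT SH 1, 2, 3 or 4, or KO SH 2, 3 or 4 was left out (adjusted p up to 0.21). The L-type pore Cacna1c, the channel that LRRC10 is known to modulate, had a log2 fold change of 0.17 ± 0.15, adjusted p = 0.53, and did not pass.

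Among 26 potassium channel genes 3 fell and 1 rose, and without KO SH 1 and KO SH 2 none rose and 3 fell. Of 12 sodium channel genes 2 rose and none fell, Scn10a (0.83 ± 0.28, adjusted p = 0.075) and the beta subunit gene Scn3b (0.61 ± 0.16, adjusted p = 0.029), both at a few CPM. Neither passed without KO SH 1 and KO SH 2 (0.73, adjusted p = 0.32 and 0.56, adjusted p = 0.19), and Scn10a lost its call when WT SH 1, 3 or 4, or KO SH 1, 2, 3 or 4 was left out (adjusted p up to 0.18). Kcnk3, the acid-sensitive leak channel TASK-1, was 56, 52.8, 49.5 and 45.2 CPM in WT SH and 24.2, 25.5, 27.8 and 23.1 CPM in KO SH (-1.01 ± 0.10, adjusted p = 7.0e-06). Kcnd2, which carries the transient outward current with Kcnd3, was 14.5, 14.1, 13.1 and 10.8 CPM in WT SH and 6.61, 6.81, 5.57 and 5.76 CPM in KO SH (-1.09 ± 0.22, adjusted p = 0.0061). For both genes the KO SH libraries were close together and none reached a WT SH library. Kcne1, the slow delayed rectifier subunit, had a log2 fold change of -0.26 ± 0.07, adjusted p = 0.024, and Kcna4 rose (0.27 ± 0.10, adjusted p = 0.0995) but lost its call when any 1 of the 8 libraries was left out (adjusted p up to 0.23). Of 10 sodium pump genes 2 rose and 2 fell, 8 lay below 0 and the median was -0.33, and without KO SH 1 and KO SH 2 1 rose and 1 fell of 9. With 1 library left out 1 to 2 rose and 1 to 3 fell. The riser Atp1b2, a beta subunit found mainly in glia and neurons, was 14.8, 14.3, 15.6 and 15.2 CPM in WT SH and 20.9, 20.3, 22.3 and 22.8 CPM in KO SH (0.53 ± 0.07, adjusted p = 0.0004).

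Of 12 genes of the cardiac conduction system and its pacemaker cells 5 rose and none fell, 4 lay below 0 and the median was 0.13. The summed level of the list was 934 to 1049 CPM in WT SH and 1046 to 1144 CPM in KO SH, with KO SH 3 just below WT SH 1. The most abundant gene in this sum was Gja1, which was not among the 5 that rose. Hcn4, the pacemaker current channel, was 4.59, 5.66, 3.92 and 5.24 CPM in WT SH and 7.51, 7.13, 6.78 and 7.6 CPM in KO SH (0.58 ± 0.12, adjusted p = 0.0069). Irx3, a homeobox factor of the His-Purkinje system, was 40.1, 32.1, 38.2 and 28.2 CPM in WT SH and 58.8, 48.7, 48.4 and 51.5 CPM in KO SH (0.58 ± 0.14, adjusted p = 0.017). Tbx3 (0.32 ± 0.07, adjusted p = 0.017), the repressor that keeps nodal cells from becoming working myocardium, Cntn2 (0.55 ± 0.14, adjusted p = 0.024), a Purkinje cell adhesion protein, and Irx5 (0.40 ± 0.12, adjusted p = 0.055) were the remaining risers. With KO SH 1 and KO SH 2 left out the median was 0.08 and Hcn4 alone passed. Without WT SH 1 all 5 passed, and Irx5 lost its call when WT SH 2, 3 or 4, or KO SH 1, 3 or 4 was left out (adjusted p up to 0.13). Hey2, a Notch effector of the compact myocardium, was 13.4, 12.9, 18.6 and 14.2 CPM in WT SH and 34.4, 28.2, 24.6 and 27.4 CPM in KO SH (0.96 ± 0.20, adjusted p = 0.008). It did not pass without KO SH 1 and KO SH 2, at a log2 fold change of 0.81, adjusted p = 0.13.

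**Figure D2:**
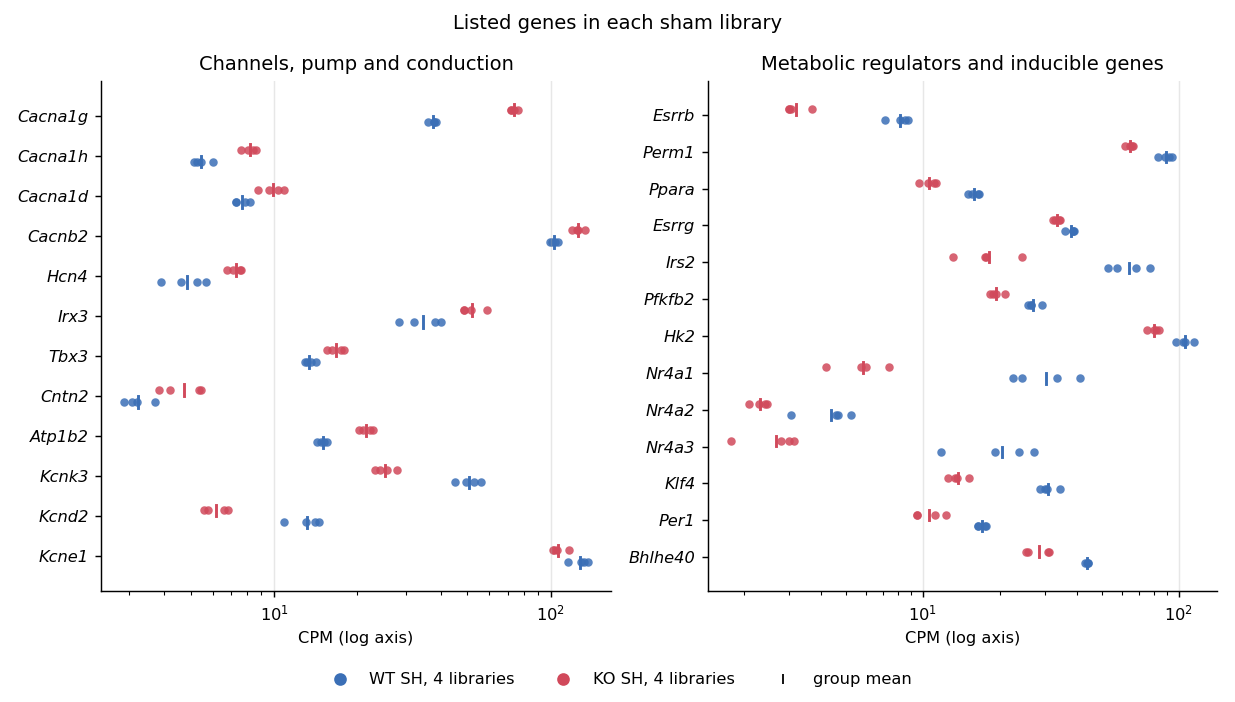
Levels of 12 channel, pump and conduction genes (left) and 13 metabolic regulators and inducible genes (right) in each sham library, in CPM on a log axis. Points are libraries, 4 per group, and ticks are group means. Cacna1g sits between 71.7 and 76.4 CPM in KO SH against 36 to 38.5 CPM in WT SH, while Nr4a1, Irs2 and Kcnk3 sit lower in KO SH.

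Most genes of the sarcomere list lay slightly lower, while the fetal isoform genes Tnni1 and Myh7, counted in another list below, did not. Of 20 sarcomere genes tested 9 fell and none rose, 17 had a log2 fold change below 0 and the median was -0.18. Myom1, the M-band cross-linker of myosin filaments, was 1433, 1184, 1163 and 1048 CPM in WT SH and 880.4, 893, 915 and 871 CPM in KO SH (-0.44 ± 0.08, adjusted p = 0.0043). The giant spring protein gene Ttn (-0.24 ± 0.05, adjusted p = 0.011), the adult alpha-myosin heavy chain gene Myh6 (-0.35 ± 0.09, adjusted p = 0.03) and the adult troponin I gene Tnni3 (-0.34 ± 0.10, adjusted p = 0.039) also fell. The list sat at 0.21, -0.03, 0.01 and -0.16 in WT SH 1 to 4 and at -0.20, -0.21, -0.16 and -0.20 in KO SH 1 to 4 relative to the WT SH mean, so that WT SH 4 was close to the KO SH libraries. Myom1 alone passed, at a list median of -0.19, without KO SH 1 and KO SH 2. Without WT SH 1 the median was -0.10 and 3 passed, and Tnni3 lost its call when WT SH 1, or KO SH 2 was left out (adjusted p up to 0.13).

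Of 19 Z-disc genes, the neighbours of LRRC10 in the cell, 4 fell and none rose, with a median of -0.18. The list in WT SH 4, at -0.16 relative to the WT SH mean, lay among the KO SH libraries (-0.14 to -0.23). With 1 library left out 2 to 6 fell, the fewest without WT SH 1 and the most without WT SH 4. Actn2, the alpha-actinin that LRRC10 binds, was 1571, 1379.5, 1347 and 1261 CPM in WT SH and 1098, 1137, 1179 and 1092 CPM in KO SH (-0.30 ± 0.08, adjusted p = 0.025). Jph2 (-0.23 ± 0.06, adjusted p = 0.018), which holds the T-tubule to the sarcoplasmic reticulum, also fell. None of the 19 passed without KO SH 1 and KO SH 2, where the value for Actn2 was -0.30, adjusted p = 0.18. Of the 23 genes of sarcoplasmic calcium handling, 5 fell and none rose, among them the calcium store protein gene Casq2 (-0.41 ± 0.11, adjusted p = 0.035), the SERCA regulator S100a1 (-0.61 ± 0.17, adjusted p = 0.043) and the plasma membrane calcium pump Atp2b1 (-0.28 ± 0.05, adjusted p = 0.0018). Atp2b1 alone of the 5 passed without KO SH 1 and KO SH 2. With 1 library left out 1 to 5 fell, the fewest without WT SH 1. Casq2 lost its call when WT SH 1 was left out (adjusted p up to 0.13), and S100a1 lost its call when WT SH 1 or 3, or KO SH 1 was left out (adjusted p up to 0.15).

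Genes of the intercalated disc, the junction that joins cardiomyocytes end to end, rose in 6 of 15 cases and fell in 1. Dsg2, the desmosomal cadherin, was 93, 88.3, 86.2 and 85.5 CPM in WT SH and 116, 113, 113 and 111 CPM in KO SH (0.36 ± 0.10, adjusted p = 0.042). Jup, or plakoglobin (0.20 ± 0.05, adjusted p = 0.02), the coxsackievirus and adenovirus receptor Cxadr (0.20 ± 0.05, adjusted p = 0.015), N-cadherin (Cdh2), Pkp2 and Pkp4 made up the remainder of the risers, with none of the 6 reaching 0.5. Dsc2, the partner cadherin of Dsg2, fell (-0.30 ± 0.06, adjusted p = 0.0085). Jup and Dsc2 alone passed without KO SH 1 and KO SH 2, where Dsg2 was at 0.34, adjusted p = 0.24, Pkp2 at 0.27, adjusted p = 0.2 and Cdh2 at 0.25, adjusted p = 0.27. Leaving out single libraries left 3 to 5 risers. Pkp4 lost its call when any 1 of the 8 libraries was left out (adjusted p up to 0.26). Cdh2 lost its call when WT SH 2 or 4, or KO SH 1, 2, 3 or 4 was left out (adjusted p up to 0.15), and Pkp2 lost its call when WT SH 2 or 4, or KO SH 2, 3 or 4 was left out (adjusted p up to 0.15). Dsg2 lost its call when KO SH 1 was left out (adjusted p up to 0.102).

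Of 16 fetal and stress genes 1 rose and 2 fell, with a median of -0.19, and none of them fell without KO SH 1 and KO SH 2. The summed level was 651 to 1660 CPM in WT SH and 1595 to 1964 CPM in KO SH. Its most abundant gene was Myh7, the fetal beta-myosin heavy chain, at 583, 909, 94.9 and 718 CPM in WT SH and 1199, 971, 1248 and 1206 CPM in KO SH (1.0 ± 0.47, adjusted p = 0.21). Myh7 did not pass, and WT SH 3 was far below the other libraries. The fetal troponin I isoform Tnni1 was 69.9, 81.5, 88 and 66 CPM in WT SH and 139.7, 134, 131 and 134 CPM in KO SH (0.82 ± 0.17, adjusted p = 0.0075), all KO SH libraries being above all WT SH libraries. Skeletal alpha-actin, Acta1, was 39.1, 63.3, 31.8 and 32 CPM in WT SH and 7.06, 14.3, 14.4 and 16.5 CPM in KO SH (-1.67 ± 0.49, adjusted p = 0.047). It did not pass without KO SH 1 and KO SH 2 (adjusted p = 0.29) and lost its call when WT SH 2, or KO SH 1 was left out (adjusted p up to 0.14). The natriuretic peptide genes Nppa (0.03 ± 0.58, adjusted p = 0.99) and Nppb (-0.52 ± 0.39, adjusted p = 0.47), the usual markers of wall stress, did not pass.

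Most of the respiratory chain genes that fell did so by less than 0.5 on the log2 scale. In complex I of the respiratory chain 22 of 38 nuclear encoded genes fell, 37 had a value below 0 and the median was -0.27. In complex IV it was 7 of 14, in the ATP synthase 10 of 18, in complex III 4 of 9 and in complex II 2 of 8, and no gene of any of these lists rose. Ndufb10, an accessory subunit of complex I, was 87.2, 73.1, 76.6 and 70.1 CPM in WT SH and 56.9, 51.6, 60.5 and 53.8 CPM in KO SH (-0.46 ± 0.08, adjusted p = 0.0021). Cox7a2l, which joins complexes III and IV into supercomplexes, was 58.9, 49.1, 60.3 and 52.4 CPM in WT SH and 30.6, 30.1, 32.6 and 28.9 CPM in KO SH (-0.85 ± 0.09, adjusted p = 1.9e-05), with all KO SH libraries well below all WT SH libraries. By comparison, none of the 13 protein coding genes of the mitochondrial genome passed the test, and their median was 0.01. Mitochondrial transcripts as a whole took 45.5 to 46.7% of counts in WT SH and 46.8 to 47.8% in KO SH, most of it the ribosomal RNA mt-Rnr2.

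Ribosomal protein genes were lower too, 42 of 79 for the cytosolic ribosome (78 below 0, median -0.24) and 24 of 78 for the mitochondrial ribosome (73 below 0, median -0.21), with none rising. Mrpl3, of the large mitochondrial subunit, was 36, 34.3, 26.5 and 26.4 CPM in WT SH and 15.6, 16.6, 14.9 and 15.9 CPM in KO SH (-0.97 ± 0.11, adjusted p = 4.7e-05). Many members of both lists have processed pseudogenes, so reads may have been divided among copies.

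The number of genes that fell in these lists depended on a few libraries. Without KO SH 1 and KO SH 2 the medians were little moved (-0.24 for complex I and for the cytosolic ribosome) but 2 of 38 and 3 of 79 passed. With the term for Xist it was 21 of 38 and 37 of 79. Without WT SH 1, 6 of 38 and 16 of 79 passed, at medians of -0.20 and -0.19, and over all 8 single-library omissions the numbers were 6 to 23 and 16 to 48. Of the shorter lists, 1 complex IV gene, 2 ATP synthase genes and no gene of complexes II and III fell without KO SH 1 and KO SH 2. Without WT SH 1 it was 4 complex IV genes, 4 ATP synthase genes and 1 gene each of complexes II and III. Of the mitochondrial ribosomal protein genes 5 fell without KO SH 1 and KO SH 2 and 14 without WT SH 1. WT SH 1 was the highest library for complex I (0.19 relative to the WT SH mean, against -0.05, 0.02 and -0.15 in WT SH 2 to 4) and all KO SH libraries were below all WT SH libraries (-0.22 to -0.28). Values over all genes varied with gene length. Among 9012 protein coding genes of at least 5 CPM, divided by exon length into 5 bins of nearly equal size, the shortest genes had a median log2 fold change of -0.10 with 17.9% falling, and the longest genes 0.00 with 8.65% falling. Within that shortest bin, the 24 complex I genes had a median of -0.28, the 62 cytosolic ribosomal protein genes -0.22 and the 30 mitochondrial ribosomal protein genes -0.22. The part of transcript length, RNA quality or library preparation in these values was not tested.

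Glycolysis and glycogen genes fell in 10 of 28 cases and rose in none, with a median of -0.26. Pygl, given above among the largest rises, was not on this list. Hk2, the hexokinase that traps glucose in muscle, was 115, 104, 106 and 97.8 CPM in WT SH and 81.8, 83.4, 75 and 79.97 CPM in KO SH (-0.40 ± 0.09, adjusted p = 0.015). Pfkfb2, the cardiac enzyme that makes the activator of phosphofructokinase, was 26.6, 25.8, 26.5 and 29.2 CPM in WT SH and 18.2, 18.9, 19.3 and 20.9 CPM in KO SH (-0.48 ± 0.08, adjusted p = 0.0021). Both kept their call without KO SH 1 and KO SH 2, where 2 of 28 fell. Genes of the tricarboxylic acid cycle fell in 6 of 18 cases (median -0.23, none without KO SH 1 and KO SH 2), among them Ogdh (-0.43 ± 0.11, adjusted p = 0.022). With 1 library at a time left out, 4 to 14 glycolysis genes and 3 to 8 cycle genes fell. Fatty acid oxidation stood nearer to 0, with 5 of 27 falling (2 to 7 with 1 library left out, the fewest without KO SH 4, and 1 without KO SH 1 and KO SH 2), none rising and a median of -0.04. Lipoprotein lipase, Lpl, was 792, 767, 792 and 745 CPM in WT SH and 633, 651, 649.8 and 588 CPM in KO SH (-0.30 ± 0.06, adjusted p = 0.0068), and the fatty acid binding protein gene Fabp3 (-0.43 ± 0.09, adjusted p = 0.0086) fell as well.

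Of 18 transcriptional regulators of oxidative metabolism (the PPAR, ERR and PGC1 families and their partners) 5 fell and none rose. Esrrb, an estrogen-related receptor, was 8.73, 8.5, 8.15 and 7.1 CPM in WT SH and 3.0, 3.7, 3.0 and 3.04 CPM in KO SH (-1.35 ± 0.14, adjusted p = 1.6e-05). Ppara, the receptor that drives fatty acid oxidation genes, was 16.6, 15, 16.4 and 15.6 CPM in WT SH and 9.63, 11, 11.3 and 10.5 CPM in KO SH (-0.59 ± 0.10, adjusted p = 0.0022). Perm1, a muscle cofactor of PGC1 and ERR, was 93.8, 91.3, 88.4 and 82.8 CPM in WT SH and 66.1, 65.9, 64.4 and 61.6 CPM in KO SH (-0.47 ± 0.06, adjusted p = 0.00012). The groups did not overlap for any of the 3, and all 3 were kept without KO SH 1 and KO SH 2. Esrrg (-0.19 ± 0.05, adjusted p = 0.03) and Rxrg (-0.82 ± 0.26, adjusted p = 0.06) fell but did not pass without KO SH 1 and KO SH 2. Rxrg lost its call when WT SH 1 or 2, or KO SH 1, 2, 3 or 4 was left out (adjusted p up to 0.16). Of 18 known PPAR target genes 3 rose and 2 fell. None passed without KO SH 1 and KO SH 2, and 1 to 2 rose and 1 to 2 fell with 1 library left out. Plin2 (0.42 ± 0.11, adjusted p = 0.023), the lipid droplet coat protein gene, and Txnip (0.75 ± 0.24, adjusted p = 0.063), an inhibitor of glucose uptake, were among those that rose. Oxct1, which lets the heart burn ketone bodies, was 312, 279, 280.4 and 261 CPM in WT SH and 161, 189, 173 and 175 CPM in KO SH (-0.70 ± 0.20, adjusted p = 0.041). Txnip lost its call when WT SH 1, 2, 3 or 4, or KO SH 1, 3 or 4 was left out (adjusted p up to 0.14). Oxct1 lost its call when WT SH 1, or KO SH 1 was left out (adjusted p up to 0.12).

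Nnt, the mitochondrial transhydrogenase that is disrupted in C57BL/6J but not in some related substrains, was 51.7, 121, 102 and 87.5 CPM in WT SH and 46.9, 40.05, 54.4 and 44.5 CPM in KO SH (-0.96 ± 0.21, adjusted p = 0.012; exact permutation test, two-sided, p = 0.0571). Without KO SH 1 and KO SH 2 it was -0.88, adjusted p = 0.15, and did not pass. WT SH 1 lay among the KO SH libraries, and the other 3 WT SH libraries stood above them. The gene was therefore transcribed in both groups, and levels of whole-gene counts do not show which allele a mouse carried.

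**Figure D3:**
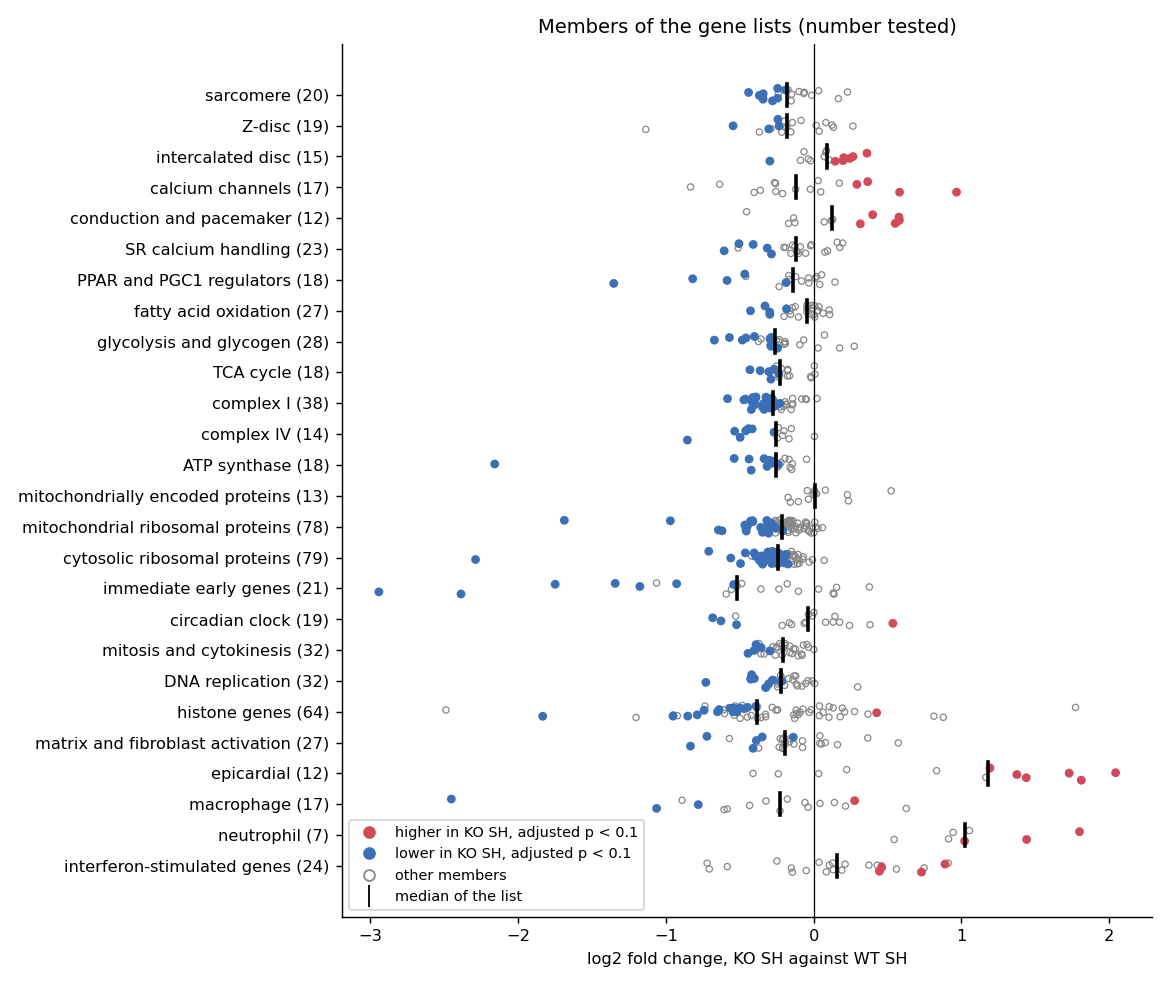
Log2 fold change (KO SH against WT SH) of the tested members of each gene list, number tested in parentheses. Filled points passed the test (red higher, blue lower), open points did not, and the black bar is the median of the list. The medians of the complex I, complex IV, ATP synthase and ribosomal protein lists lie between -0.27 and -0.21, and of the lists drawn immediate early genes spread furthest to the left and epicardial genes furthest to the right.

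Of 16 G1 cyclins and inhibitors 2 rose and 2 fell, and none rose and 1 fell without KO SH 1 and KO SH 2. Of 32 genes of mitosis and cytokinesis 5 fell and none rose, 31 were below 0 and the median was -0.21. Mki67, the proliferation marker Ki-67, was 333, 282, 301 and 353 CPM in WT SH and 259, 241, 232 and 228 CPM in KO SH (-0.40 ± 0.09, adjusted p = 0.0085), with every KO SH library below every WT SH library. Aurkb, the kinase of the cleavage furrow, was 4.65, 5.45, 5.55 and 7.08 CPM in WT SH and 4.96, 5.02, 3.61 and 3.9 CPM in KO SH (-0.38 ± 0.16, adjusted p = 0.17) and did not pass, although it did with a term for Xist over 100 CPM (-0.50, adjusted p = 0.078). Of 32 DNA replication genes 10 fell and none rose (median -0.22), among them Mcm3 (-0.42 ± 0.09, adjusted p = 0.011), a subunit of the replicative helicase, and E2f2 (-0.73 ± 0.18, adjusted p = 0.022). Cyclin D1, Ccnd1, which drives entry into the cycle, was 59.8, 59.4, 59.8 and 59.5 CPM in WT SH and 38.7, 44.4, 47 and 39 CPM in KO SH (-0.50 ± 0.07, adjusted p = 0.00028) and was tightly grouped in WT SH. Meis1 (0.37 ± 0.08, adjusted p = 0.0081) and Meis2 (0.27 ± 0.05, adjusted p = 0.0056), homeobox factors tied to cell cycle exit of cardiomyocytes, rose. Relative to the WT SH mean, the mitosis list was at -0.09 in KO SH 1, above -0.10 in WT SH 2. Its summed level did not overlap, at 896 to 1121 CPM in WT SH and 779 to 883 CPM in KO SH. The replication list overlapped too, at -0.14 in WT SH 3 against -0.11 in KO SH 1 and -0.13 in KO SH 2. With 1 library at a time left out, 3 to 6 mitosis genes fell (the fewest without KO SH 4) and 2 to 11 replication genes (the fewest without KO SH 3). Without KO SH 1 and KO SH 2, 2 mitosis genes and 2 replication genes fell, Ccnd1 kept its call (-0.47, adjusted p = 0.011) and Meis1 and Meis2 did not (adjusted p = 0.15 and 0.12). Histone genes fell in 16 of 64 cases and rose in 1 (median -0.39), but 2 fell without KO SH 1 and KO SH 2, 9 to 13 with 1 library left out, and their near-identical copies make single members uncertain. The summed level of the thymocyte and T cell markers was also lower, at 12.2, 11.03, 10.1 and 13.2 CPM in WT SH 1 to 4 and 7.71, 8.32, 7.57 and 7.86 CPM in KO SH 1 to 4. Most of this sum was Thy1, which fibroblasts and neurons make too and which was the only 1 of the 10 markers tested that fell, and its part in the values of cell cycle genes was not tested.

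Of 9 VEGF and angiopoietin ligands and VEGF co-receptors 2 rose and 2 fell, and 1 rose and 2 fell without KO SH 1 and KO SH 2. Vegfa, the main endothelial growth factor of the heart, was 200.03, 182, 194 and 175 CPM in WT SH and 136, 139, 151 and 134 CPM in KO SH (-0.42 ± 0.06, adjusted p = 0.00022). Angpt1, the ligand of Tie2, was 9.65, 11.7, 8.0 and 8.31 CPM in WT SH and 18.3, 19.98, 15 and 15.6 CPM in KO SH (0.87 ± 0.15, adjusted p = 0.0021). Both kept their call without KO SH 1 and KO SH 2. Of 20 neuregulin, ERBB and IGF genes 1 rose and 2 fell, and none rose and 1 fell without KO SH 1 and KO SH 2. Erbb2, the neuregulin co-receptor of cardiomyocytes, rose (0.46 ± 0.09, adjusted p = 0.0065) but did not pass without KO SH 1 and KO SH 2 (adjusted p = 0.12). Of 28 genes of TGF-beta, activin and BMP signaling 4 fell and none rose, with 2 falling without KO SH 1 and KO SH 2 and 2 to 4 with 1 library left out (the fewest without WT SH 2 or KO SH 1). Ltbp1, which holds latent TGF-beta in the matrix, was 63.5, 57, 52.3 and 53.5 CPM in WT SH and 30.9, 36.5, 34.1 and 34 CPM in KO SH (-0.74 ± 0.09, adjusted p = 0.00012). Postn, periostin of activated fibroblasts, was 554, 522, 471 and 498 CPM in WT SH and 362, 401, 405 and 396 CPM in KO SH (-0.39 ± 0.06, adjusted p = 0.0016). It was among 6 of 27 matrix and fibroblast activation genes that fell, while none rose. With 1 library left out 3 to 6 fell. Among these, Postn alone passed without KO SH 1 and KO SH 2.

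Markers of cell types other than cardiomyocytes were counted as well. Of 12 epicardial and mesothelial genes tested 6 rose, none fell and the median was 1.18. Muc16, a surface mucin, was 5.79, 4.62, 4.34 and 1.18 CPM in WT SH and 16.5, 14.4, 11.9 and 10.4 CPM in KO SH (1.73 ± 0.39, adjusted p = 0.014). The other 5, which also mark the mesothelial surface, were each at a few CPM or less. They were Msln (1.44 ± 0.36, adjusted p = 0.023), Krt19 (1.19 ± 0.31, adjusted p = 0.027), Bnc1 (1.81 ± 0.47, adjusted p = 0.026), Upk1b (2.04 ± 0.59, adjusted p = 0.042) and Upk3b (1.38 ± 0.44, adjusted p = 0.065). Wt1 (-0.24 ± 0.11, adjusted p = 0.23) and Aldh1a2 (0.04 ± 0.08, adjusted p = 0.84), the more abundant epicardial genes, did not pass. The summed level of the list was 67.9, 62.3, 64.7 and 54.7 CPM in WT SH 1 to 4 and 83.2, 85.4, 74.2 and 74.2 CPM in KO SH 1 to 4, with Aldh1a2 the most abundant. WT SH 4 was the lowest library for the mesothelial genes, none of the 12 passed without KO SH 1 and KO SH 2 (median 1.14), and how much surface tissue each dissection held was not tested. Upk1b lost its call when WT SH 1 was left out (adjusted p up to 0.105), and Upk3b lost its call when WT SH 2 or 4, or KO SH 1, 2, 3 or 4 was left out (adjusted p up to 0.13).

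Of 20 endothelial genes 2 rose, Aplnr (0.30 ± 0.07, adjusted p = 0.018) and Sox17 (0.43 ± 0.10, adjusted p = 0.018), and Erg fell (-0.16 ± 0.05, adjusted p = 0.089). Of the 20 genes 10 lay above 0 and 10 below 0, and the median was -0.01. The summed level of the list was 1328 to 1356 CPM in WT SH and 1252 to 1308 CPM in KO SH, without overlap. Its most abundant gene, the VEGF receptor gene Kdr, did not pass. Of 12 smooth muscle and pericyte genes smooth muscle myosin Myh11 rose (0.42 ± 0.11, adjusted p = 0.033) and smooth muscle actin Acta2 fell (-0.56 ± 0.16, adjusted p = 0.04). In that list 4 genes lay above 0 and 8 below 0, and the median was -0.08. The summed level of the 12 genes was 1000.1 to 1112 CPM in WT SH and 887.9 to 949 CPM in KO SH, again without overlap. Rgs5, the most abundant, did not pass. Of 12 erythroid genes Sptb, or beta-spectrin, rose (0.36 ± 0.08, adjusted p = 0.008) and Hbb-bt fell. No endothelial or erythroid gene passed without KO SH 1 and KO SH 2, and 1 smooth muscle gene rose. Erg lost its call when WT SH 1, 3 or 4, or KO SH 1, 2, 3 or 4 was left out (adjusted p up to 0.22). Acta2 lost its call when WT SH 1 or 2, or KO SH 1 or 4 was left out (adjusted p up to 0.16), and Myh11 lost its call when WT SH 1 was left out (adjusted p up to 0.11).

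Macrophage genes fell in 3 of 17 cases and rose in 1, with summed levels of 96.5, 98.3, 86.8 and 84.5 CPM in WT SH 1 to 4 and 83.1, 88.9, 82.7 and 82.0 CPM in KO SH 1 to 4 and Mrc1 the most abundant. The Fc receptor gene Fcgr1 (-2.45 ± 0.46, adjusted p = 0.0041) and the complement genes C1qb (-1.06 ± 0.24, adjusted p = 0.015) and C1qa (-0.78 ± 0.22, adjusted p = 0.043) fell, all below 3 CPM in every library, and Mertk (0.28 ± 0.09, adjusted p = 0.057) rose, and none of the 16 macrophage genes that could be tested passed without KO SH 1 and KO SH 2. Mertk lost its call when WT SH 1, 3 or 4, or KO SH 1, 2, 3 or 4 was left out (adjusted p up to 0.14). C1qa lost its call when WT SH 1, or KO SH 1 was left out (adjusted p up to 0.12). Neutrophil genes rose in 3 of 7 cases. Csf3r, the receptor for granulocyte colony-stimulating factor, was 0.192, 0.107, 0.229 and 0.242 CPM in WT SH and 0.564, 0.432, 0.938 and 0.76 CPM in KO SH (1.80 ± 0.43, adjusted p = 0.019). The list had summed levels of 1.6 to 2.29 CPM in WT SH against 3.67 to 4.82 CPM in KO SH, and 1 to 2 rose with 1 library left out and 1 without KO SH 1 and KO SH 2. The granule genes Mpo, Elane, Prtn3, Camp and Mmp8 were below the minimum count. Among 10 thymocyte and T cell genes tested 1 fell and none rose, with a median of -0.52. It was Thy1, the most abundant of them, at 9.11, 8.5, 7.52 and 7.92 CPM in WT SH and 5.07, 5.89, 4.96 and 5.53 CPM in KO SH (-0.63 ± 0.09, adjusted p = 0.0005), with no overlap between the groups. The thymocyte genes Rag2, Ptcra and Dntt and the T cell genes Cd3d and Cd8b1 were below the minimum count. No B cell, nerve or atrial gene passed the test. Among 13 skeletal muscle genes Tpm3 (-0.60 ± 0.12, adjusted p = 0.0065) and Myl1 (-3.63 ± 0.87, adjusted p = 0.018) fell, and 1 of 11 tested fell without KO SH 1 and KO SH 2. Ckm was the most abundant, the summed level was 383 to 487 CPM in WT SH and 356 to 396 CPM in KO SH, and Myod1, Myog, Actn3 and Tnnc2 were below the minimum count.

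**Figure D4:**
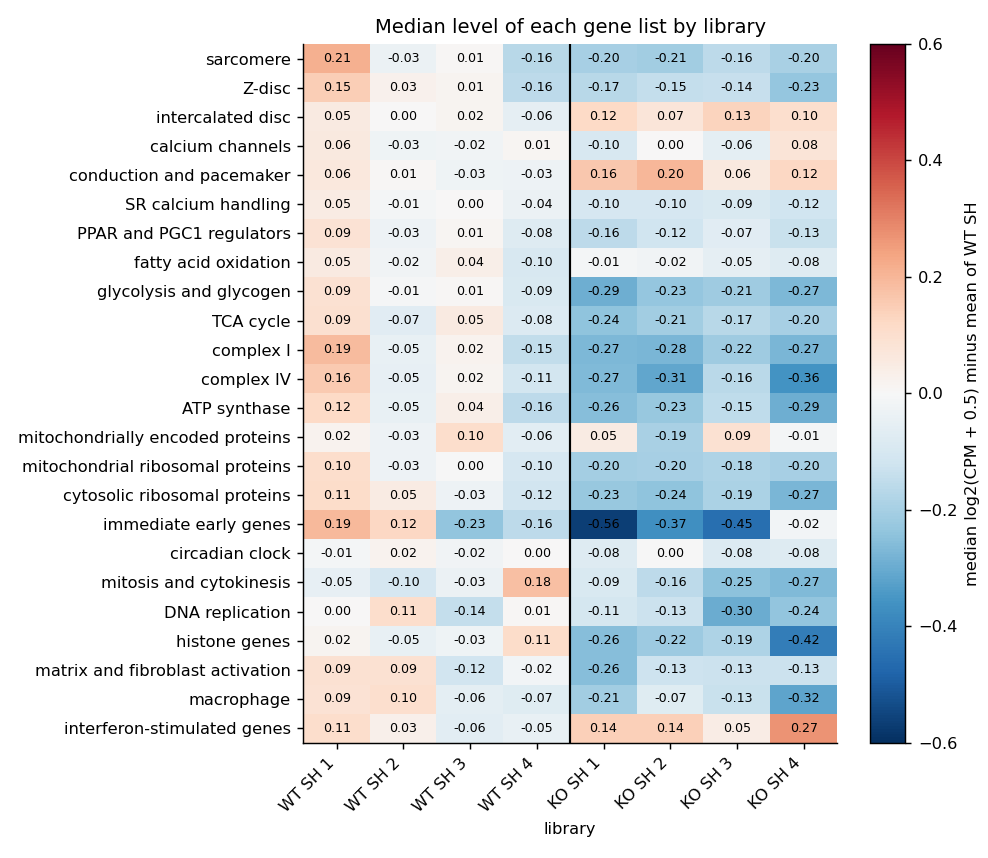
Median level of each gene list in each sham library, as log2(CPM + 0.5) minus the mean of the 4 WT SH libraries. Nuclear encoded respiratory chain lists and ribosomal lists are below 0 in all 4 KO SH libraries, and for most of them WT SH 1 is above 0 and WT SH 4 below 0. Mitochondrially encoded proteins are at 0.05, -0.19, 0.09 and -0.01 in KO SH 1 to 4. The immediate early genes of KO SH 4 are at -0.02.

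The same genotypes in injured hearts gave a comparison in libraries that share no sample with the sham groups. Both comparisons came from the same fit, with the spread estimated over all 16 libraries. The mice were of the same lines, so loss of Lrrc10 and any other difference between the lines cannot be told apart in either comparison. Of the 1004 sham DEGs 788 (78.5%) had the same sign between KO MI and WT MI, beside 54.2% of all genes tested. Of the genes tested, 363 (1.77%) were DEGs in the injured hearts, and 178 of the sham DEGs were DEGs there with the same sign and 1 with the opposite sign. Taken in the direction of the sham difference, the median difference of the sham DEGs after infarction was 0.27, and their 0.79 in sham is raised by the choice of genes on that difference. Without KO SH 1 and KO SH 2, 295 of 339 (87.0%) had the same sign and 98 were DEGs in both. S100a10 (-1.68, 6.3e-09), H2ac18 (-1.65, 5.5e-07), Lynx1 (-3.11, 0.00024), Cacna1g (0.78, 6.3e-05), Kcnk3 (-0.58, 0.0031), Kcnd2 (-1.80, 0.00042), Nr4a1 (-1.34, 0.0029), Klf4 (-0.82, 0.0012) and Esrrb (-0.79, 0.0036) were DEGs in the injured hearts as well, each value being the log2 fold change of KO MI against WT MI with its adjusted p. Irs2 (-0.64, 0.13), Scd4 (0.55, 0.56) and Mki67 (0.10, 0.7) did not pass there.

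The gap between the knockout effect in injured and in sham hearts was itself tested for every gene and passed for 5. Nr4a3, at -2.94 in sham, was at 0.05 after infarction (adjusted p of the difference 0.0033). Sik1 went from -1.29 to -0.45 (adjusted p = 0.040) and the unnamed transcript Gm43605 from -2.41 to -0.73 (adjusted p = 0.012). Bhlhb9 on the X chromosome went from 0.50 to -0.01 (adjusted p = 0.065) and Tomm40, a mitochondrial import pore gene, from -0.36 to 0.27 (adjusted p = 0.090), all by the edgeR quasi-likelihood test. This count moved strongly with the libraries used, from 1 gene without KO SH 1 and KO SH 2 to 207 genes without WT SH 4, and DESeq2 gave 569.

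**Figure D5:**
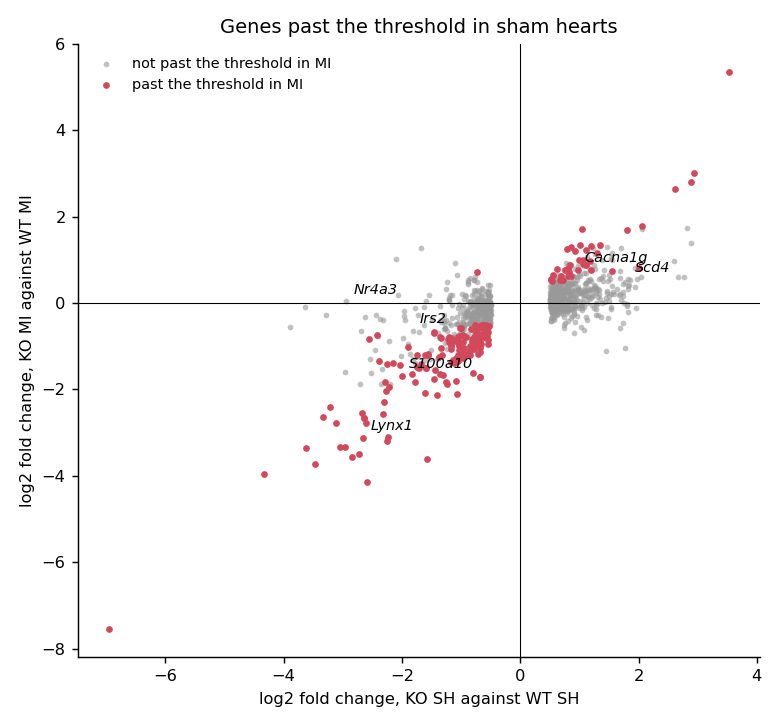
Log2 fold change of the DEGs of the sham comparison in sham hearts (x axis) and in infarcted hearts (y axis), Xist left out. Points are genes and red marks genes that were DEGs in the infarcted hearts too. Most lie in the lower left and upper right areas, with Nr4a3 near 0 on the y axis.

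Within 10 Mb of Lrrc10 on chromosome 10, 6 of 113 tested genes were DEGs (5.31%), against 998 of 20430 elsewhere (4.88%), a difference that was not tested. The single lower one was Gm10747, an lncRNA gene at chr10:116878296-116881013 of GRCm39 that ends 232 bases before Lrrc10 (chr10:116881246-116882673) on the same strand. It was 1.61, 1.74, 1.06 and 0.797 CPM in WT SH and 0.0902, 0.162, 0.104 and 0.157 CPM in KO SH (-3.34 ± 0.33, adjusted p = 8.1e-06), and it was the only one of the 6 that was also a DEG in the injured hearts (-2.63, adjusted p = 0.00024). How far the deletion reaches beyond Lrrc10 was not tested. The 5 higher ones were the Wnt antagonist gene Wif1 (1.11), the vasopressin receptor gene Avpr1a (0.62) and 3 predicted genes (0.52 to 1.54), and Avpr1a lost its call when WT SH 1, 2 or 4, or KO SH 1, 2 or 4 was left out (adjusted p up to 0.23). Windows of 10 Mb with at least 30 tested genes numbered 227. Among these the highest shares were 10 of 53 genes on chromosome 17 at 70 to 80 Mb (18.9%) and 6 of 32 on chromosome 10 at 100 to 110 Mb (18.8%). This chromosome 10 window overlaps the stretch within 10 Mb of Lrrc10, and the predicted genes Gm47337 (1.54) and Gm47339 (1.24) lie in both. In the next window, which holds Lrrc10, 1 of 64 tested genes was a DEG (1.56%). Clustering of DEGs beside Lrrc10 was not tested. The windows are given as a description of where the calls lay.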

How the data were processed

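Ventricular RNA of 16 libraries (4 per group) was analysed from the deposited table of RSEM expected counts, which the authors made from paired-end reads of a stranded total RNA library with ribosomal RNA depletion. The study's methods name Skewer, STAR and RSEM, whereas the submitters' processing notes name cutadapt, HISAT2 and RSEM, both with the GRCm39 genome. The annotation release was not given in the sources used here, so symbols and positions came from a GENCODE annotation of GRCm39, which matched 47772 of 51912 identifiers. The deposited expected counts are estimates that divide reads among similar genes, and they were rounded to whole numbers here.

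Genes whose counts summed to 10 or more in both sham groups were fitted in all 16 libraries with edgeR 4.0.16 (quasi-likelihood test, TMM scaling, limma 3.58.1, R 4.3.3), one coefficient per group, two-sided, with Benjamini-Hochberg adjustment over 20543 genes. Log2 fold changes are of KO SH against WT SH with their SE. Alternatives were DESeq2 1.42.0, other scalings and filters, a robust fit, the 8 sham libraries alone, a replicate block, a term for Xist over 100 CPM, and leaving out libraries. A floor of 3 counts per library stood for 0 and covers counting error only. The exact permutation test (two-sided, log2(CPM + 0.5), 70 assignments) cannot go below 0.0286, the value given by groups without overlap. It was reached by 103 of the 113 named genes tested in this way. Many of these were named for a lack of overlap or a small p, so that number largely follows from the choice. Over all genes tested 18.2% had no overlap. The fitting code was tested on simulated data with known changes.

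Genes were named by rule: the 12 largest rises and 12 largest falls among autosomal protein coding DEGs without overlap and with a mean of at least 5 CPM, the 4 members of each gene list with the smallest p, genes named by the study, and control genes. A few genes that the rule named are not reported here. Others in the text were chosen after their values were seen. The gene lists, the comparison and the rule were chosen with earlier results of these data known, so their counts are descriptions. Promoters came from RefSeq. Replicate pairs differed by more than sampling noise, so all libraries were kept.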

Additional observations from a re-analysis of the deposited data

Results flagged for a closer look

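Each group of 4 sham libraries was examined for a library apart from the other 3, for 142 named genes, and 14 of 284 groups held one by Dixon's criterion. The criterion is set to flag about 1 in 20 groups by chance. These groups share libraries, and the number that chance gives among them was not tested. In WT SH, Cyfip2 was 14.1 CPM in WT SH 4 against 74.0 to 80.6 CPM in the other libraries and Tdg was 20.6 CPM there against 35.5 to 37.1 CPM. Abca4 was 6.12 CPM in WT SH 3 (4.06 to 4.22 CPM in the others), Mertk 11.1 CPM in WT SH 2 (9.42 to 9.55 CPM), and WT SH 1 held 73.4 CPM of Jup (79.5 to 80.3 CPM) and 9.77 CPM of Xist (6.17 to 6.72 CPM). In KO SH, 4 of the libraries apart were KO SH 1, with 15.3 CPM of Nppb (23.2 to 24.2 CPM in the others), 95.5 CPM of S100a1 (103 to 104 CPM), 428 CPM of Rgs5 (442 to 444 CPM) and 15.4 CPM of Sik1 (19.3 to 19.8 CPM). KO SH 2 held 3.70 CPM of Esrrb (3.0 to 3.04 CPM) and 6.32 CPM of Irx5 (6.97 to 7.02 CPM), and KO SH 3 held 95.4 CPM of Jup (88.0 to 88.9 CPM) and 21.8 CPM of Rpl29 (14.6 to 15.5 CPM).

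The knockout effect differed between injured and sham hearts by the test of the difference for 5 genes. On the log2 scale the effect after infarction minus that in sham was 2.99 for Nr4a3, 0.84 for Sik1, 1.68 for Gm43605, 0.63 for Tomm40 and -0.51 for Bhlhb9.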

How the results depend on the processing

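The direction of each called gene named above was the same under every alternative that tested it (Fcgr1 had too few counts to be tested without KO SH 2, 3 or 4, or without KO SH 1 and KO SH 2 together). The 1004 DEGs became 339 without KO SH 1 and KO SH 2 together, 660 to 1204 with 1 library left out (the fewest without WT SH 1, the most without WT SH 4) and 2465 with no minimum fold change, and the other alternatives gave counts within 1.5 times of 1004. The 2465 genes passing the test became 506 without KO SH 1 and KO SH 2, 1395 to 2789 with 1 library left out and 3703 in the 8 sham libraries alone. DEGs shared with the injured hearts numbered 178, 98 without KO SH 1 and KO SH 2, and 144 to 181 with 1 library left out. The 5 genes whose knockout effect differed between injury and sham became 569 with DESeq2, 41 with no filter, 8 with a robust fit, 8 with a term for Xist, 1 without KO SH 1 and KO SH 2, and 2 to 207 with 1 library left out. The cause of these changes was not tested, beyond fewer libraries where some were left out.

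Of 124 called genes named above, 64 kept their call without KO SH 1 and KO SH 2. Under alternatives that kept all sham libraries, 119 to 125 of 125 did.

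Among genes that did not pass the test, 4 changed sign under some alternative. Nppa ran from -0.25 to 0.47 with 1 library left out and was -0.083 with a term for Xist. Aldh1a2 ran from -0.0035 to 0.081 with 1 library left out and was -0.024 without KO SH 1 and KO SH 2 and -0.011 with a term for Xist. With 1 library left out, Pdgfra ran from -0.0032 to 0.10 and Tnnt2 from -0.16 to 0.11.

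A replicate block in the 8 sham libraries gave 1067 DEGs and 3181 genes passing the test. Libraries with the same replicate number did not deviate together (r = -0.040, 0.010, -0.045 and -0.027), only WT SH 2 of the 8 correlated best with its own number, and the labels do not say that numbers mark a litter or day, so the block was not used. Low counts limit genes under about 1 CPM.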

Other observations

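Further gene lists, taken from the same fit, gave small counts. Of 43 mitochondrial solute carriers 7 fell and none rose, beside 7.01% of all genes falling, and their median was -0.02. In the bins by length of protein coding genes of at least 5 CPM, 8.65 to 17.9% fell. Of the carriers 3 fell without KO SH 1 and KO SH 2 and 4 to 7 with 1 library left out. Slc25a25, the calcium-regulated ATP-Mg carrier, was 11.8, 10.7, 9.0 and 10.9 CPM in WT SH and 6.72, 6.51, 6.67 and 7.23 CPM in KO SH (-0.65 ± 0.09, adjusted p = 0.00035), and Slc25a33, a pyrimidine nucleotide carrier, was 4.92, 3.26, 2.94 and 3.36 CPM in WT SH and 1.71, 2.48, 2.21 and 1.78 CPM in KO SH (-0.83 ± 0.16, adjusted p = 0.0046). The groups did not overlap for either carrier. Of 22 cholesterol synthesis genes 2 rose and 2 fell, 15 lay below 0 and the median was -0.28. With 1 library left out 1 to 2 rose and 1 to 2 fell. The summed level was 250 to 259 CPM in WT SH and 228 to 242 CPM in KO SH, without overlap. Against this direction, Hsd17b7, which reduces the sterol ring, was 20.5, 24.1, 22.5 and 21.4 CPM in WT SH and 32.5, 36, 34.9 and 35.4 CPM in KO SH (0.65 ± 0.07, adjusted p = 3.1e-05), with every KO SH library above every WT SH library.

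The basement membrane genes Lama4 (-0.27 ± 0.04, adjusted p = 0.0012) and Lamc1 (-0.25 ± 0.05, adjusted p = 0.0042), laminin chains of muscle and vessels, and Col15a1 (-0.41 ± 0.07, adjusted p = 0.002), a collagen of the same layer, were lower in KO SH. Of 31 integrin and laminin genes 5 fell and 2 rose, and of 27 collagen genes 5 fell and none rose. Without KO SH 1 and KO SH 2 the counts were 2 falling and none rising, and 1 falling and none rising. With 1 library left out 3 to 6 integrin and laminin genes fell and 1 to 3 rose, and 1 to 6 collagen genes fell, the fewest without WT SH 1 or KO SH 1. The superoxide dismutase gene Sod2 (-0.29 ± 0.07, adjusted p = 0.022) was 1 of 6 of 12 mitochondrial antioxidant genes that fell, none of which passed without KO SH 1 and KO SH 2, and 3 to 6 fell with 1 library left out.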
